A study of Mus musculus with 12 samples.

Results

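The 8 genes described here were grouped as matrix processing, proteoglycan and adhesion genes: Mmp2, Serpinh1, Serpine2, Itga5, Chsy3, Cspg5, Tnxb and Ccdc80. Their part in the matrix of the liver was not tested. They were picked by symbol from 336 genes that the authors' own test had already selected as different between high-fat diet (HFD) and chow, so the diet values below chose the genes and are given as a description. All 8 symbols were found, 4 of them higher and 4 lower on HFD. The authors had listed 215 genes as higher and 121 as lower, which is 0.86% and 0.484% of the about 24990 genes tested. All listed genes had a deposited log2 fold change of at least 0.6 in size. Genes that passed the test with a smaller change are therefore not in these shares. Since the 8 genes were drawn from that list, nothing is read from their count against these shares.

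Liver RNA was sequenced from 12 C57BL/6N mice, all PXR deficient, in 4 groups of 3 mice with 1 library per mouse. PXR is the pregnane X receptor, which governs drug metabolism, and its deficiency is shared by every group, the controls included. HFD mice received high-fat diet without injection (mice 659, 669 and 696), and Chow mice received regular chow without injection (mice 670, 695 and 707). Mice entered the diets at 6 weeks of age and stayed on them for 18 weeks. The other groups were fed HFD and injected intraperitoneally once a day for 4 days, either with 50 mg/kg of PCN, a rodent PXR ligand, or with a corn oil vehicle holding 30% DMSO. Of the 8 genes 0 were among the 33 genes listed for PCN against vehicle, so the effect of PCN on them was not analysed here. The labels do not give the sex of the mice or how the deficiency was made, and wild-type mice were not analysed here.

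The extracellular matrix is built by secreted collagens, glycoproteins and proteoglycans, trimmed by proteases that inhibitors hold in check, and felt by cells through integrins. In the liver, matrix is made largely by stellate cells and portal fibroblasts, and its build-up in fatty liver disease is known as fibrosis. Bulk RNA from a liver piece mixes all its cells, so a change in the number of cells of a type cannot be told apart from a change in RNA per cell. Of the marker lists for liver cells other than hepatocytes, 1 of 12 stellate cell and myofibroblast markers (Vim, 374 ± 57.9 normalized counts on HFD and 229.5 ± 28.4 on Chow, SD, n = 3 each) and 2 of 11 macrophage markers (Itgax and Mmp12) were among the 336 genes. Both macrophage markers were higher on HFD, Itgax at 37.9 ± 8.27 against 7.33 ± 5.17 on Chow and Mmp12 at 51.4 ± 29.0 against 10.8 ± 2.74 on Chow (SD, n = 3 each). The macrophage genes Adgre1 and Cd68, the defining stellate cell genes Acta2, Des, Pdgfrb and Lrat, all 7 hepatocyte markers, and the portal fibroblast, endothelial, cholangiocyte, adipocyte and lymphocyte markers were not among the rows, so the tissue label was not checked and summed marker levels were not analysed here. The part of these cells in the results below was not tested.

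The listed genes together drew 625048 to 920106 counts in each HFD mouse and 547431 to 670379 in each Chow mouse. These sums are not library depths, which are unknown. Values below are normalized counts, meaning the deposited read count of a gene in a mouse divided by that mouse's size factor. Group values are the mean ± SD over 3 mice, and a fold is the ratio of the group means. Ordered by size, the folds of the 4 higher genes had a median of 2.23, against 2.31 over all 215 higher genes. The 4 lower genes had a median of 2.18-fold lower, against 1.99-fold lower over all 121 lower genes.

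**Figure D1:**
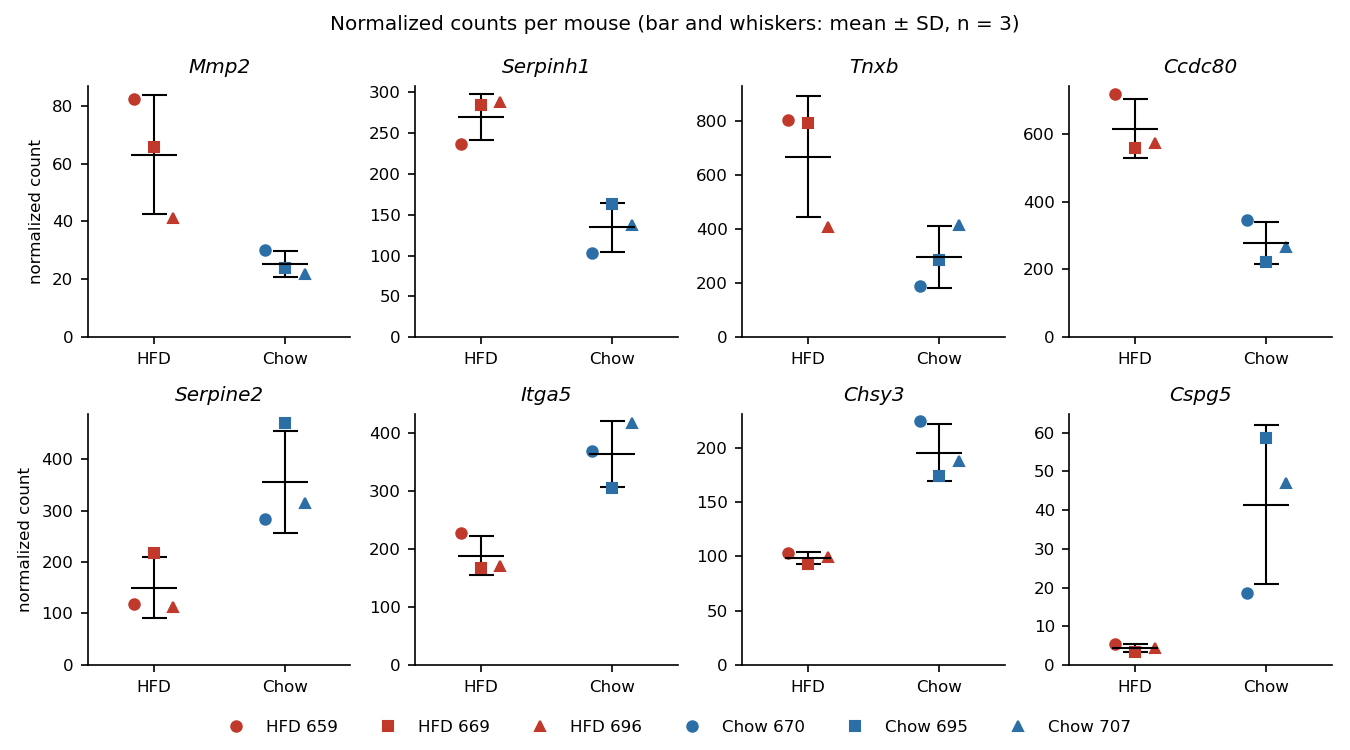
Normalized count (vertical axes, each starting at 0) of the 8 genes in each mouse, with HFD mice left and Chow mice right in each panel; bars and whiskers are the mean ± SD of 3 mice. In 7 panels the 3 HFD mice lie wholly to one side of the 3 Chow mice, and in the Tnxb panel HFD mouse 696 (409) lies just under Chow mouse 707 (416).

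Promoter sequences from RefSeq on GRCm38.p6 were held for 4 of the 8 genes, 2 of them higher (Serpinh1 and Tnxb) and 2 lower on HFD (Serpine2 and Itga5), and are shown to set the promoters of genes that went up and down side by side. Each line gives the 250 bases before the annotated start, 5′ to 3′ on the gene's strand, and capitals mark matches on either strand to the GC box (GGGCGG) or the AP-1 site (TGANTCA).
Serpinh1: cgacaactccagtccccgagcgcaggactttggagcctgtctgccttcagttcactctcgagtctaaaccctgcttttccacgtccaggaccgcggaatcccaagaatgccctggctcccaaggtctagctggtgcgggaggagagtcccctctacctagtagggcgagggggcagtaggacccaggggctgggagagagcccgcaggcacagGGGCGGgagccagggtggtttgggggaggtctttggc
Tnxb: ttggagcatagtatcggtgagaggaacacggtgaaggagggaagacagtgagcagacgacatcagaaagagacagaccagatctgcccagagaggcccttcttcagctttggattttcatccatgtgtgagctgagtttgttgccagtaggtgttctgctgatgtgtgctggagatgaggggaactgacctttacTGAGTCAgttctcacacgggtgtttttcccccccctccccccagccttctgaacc
Serpine2: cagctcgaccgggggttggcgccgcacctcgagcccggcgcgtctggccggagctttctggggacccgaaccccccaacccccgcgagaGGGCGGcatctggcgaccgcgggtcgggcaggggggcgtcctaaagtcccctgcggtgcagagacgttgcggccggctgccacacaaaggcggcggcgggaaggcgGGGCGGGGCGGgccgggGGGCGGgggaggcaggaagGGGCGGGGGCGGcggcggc
Itga5: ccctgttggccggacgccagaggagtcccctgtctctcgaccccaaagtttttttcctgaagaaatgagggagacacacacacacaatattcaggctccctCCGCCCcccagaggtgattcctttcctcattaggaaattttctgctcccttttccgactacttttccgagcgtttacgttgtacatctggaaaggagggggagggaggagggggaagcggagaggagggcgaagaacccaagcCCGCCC
The windows are chr7:99353240-99353489 (minus strand), chr17:34670285-34670534 (plus strand), chr1:79858666-79858915 (minus strand) and chr15:103366792-103367041 (minus strand). The window of Serpine2 lies inside the deposited span of the gene, which reaches to an upstream start. GC boxes were matched 6 times in Serpine2, from position -161 to -13 before the start, with 1 pair of matches sharing a base, 2 times in Itga5, at -149 and -6, and 1 time in Serpinh1, at -37. Of all 32851 promoters of this length 32.7% hold at least 1 GC box. Tnxb held no GC box and 1 AP-1 match, at -55, which 6.75% of promoters hold. The CCAAT box (CCAAT, either strand, in 33.9% of promoters) and the TATA box (TATAAA, in 12.4%) were not matched in these 4 windows. The windows of Serpine2, Serpinh1, Itga5 and Tnxb had 78.8%, 63.6%, 55.6% and 52.4% G and C, and the median over all promoters was 52.4%. A match says only that these letters are present.

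Mmp2 encodes matrix metalloproteinase 2, a secreted gelatinase that cuts denatured collagen and basement membrane collagen. The gene lies on chromosome 8 from 92827291 to 92853420 of GRCm38, on the plus strand. HFD mice 659, 669 and 696 had 82.2, 65.7 and 41.3 normalized counts, and Chow mice 670, 695 and 707 had 30.3, 24.0 and 21.7. All HFD mice were above all Chow mice, but the gap between the nearest mice was 11.04 counts while the HFD mice spanned 40.9. The means were 63.1 ± 20.6 on HFD and 25.3 ± 4.44 on Chow (SD, n = 3 each), 2.49-fold higher. In the authors' deposited table its adjusted p of 0.0474 was the largest of all 336 genes. Mmp2 therefore stands at the edge of the authors' threshold, with a deposited log2 fold change of 0.90 (SE 0.27).

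Serpine2 encodes protease nexin-1, a secreted inhibitor of thrombin and plasminogen activators. It is found on chromosome 1 from 79794197 to 79861180, on the minus strand, and had the promoter richest in GC boxes among those shown. HFD mice 659, 669 and 696 had 119, 219 and 113 normalized counts, against 284, 469 and 315 in Chow mice 670, 695 and 707. Each group held 1 mouse well above its other mice, 669 on HFD and 695 on Chow, and the groups did not overlap. The gene averaged 150.4 ± 59.1 on HFD and 356 ± 99.2 on Chow (SD, n = 3 each), 2.37-fold lower on HFD. The authors' deposited table has -0.98 as its log2 fold change (SE 0.24, adjusted p 0.004623). Without HFD mouse 669 the difference was 3.05-fold lower, and without Chow mouse 695 it was 1.99-fold lower.

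Serpinh1 encodes HSP47, a serpin without inhibitor activity that serves as the chaperone of procollagen in the endoplasmic reticulum. Its span on chromosome 7 runs from 99345376 to 99353239, on the minus strand. Normalized counts were 237, 284 and 288 in HFD mice 659, 669 and 696, against 103, 163 and 138 in Chow mice 670, 695 and 707. The HFD mice were close together, with the highest 1.21 times the lowest, and lay clear of the Chow mice by 73.6 counts. The means were 269 ± 28.4 on HFD and 134 ± 30.4 on Chow (SD, n = 3 each), 2.004-fold higher. The authors' deposited table gives a log2 fold change of 0.86 (SE 0.20) and an adjusted p of 0.002346.

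Tnxb encodes tenascin-X, a large matrix glycoprotein that binds collagen fibrils. It is on chromosome 17 from 34670535 to 34719815, on the plus strand, and its longest transcript has 41 exons and 12209 bases. Its promoter is the one shown with an AP-1 match. HFD mice 659, 669 and 696 had 804, 795 and 409 normalized counts, and Chow mice 670, 695 and 707 had 189.6, 286 and 416. HFD mouse 696 was thus just below Chow mouse 707, and the groups overlapped. Of all 336 genes 334 had groups that did not overlap (99.4%), and of the 8 genes described here 7 did, all but Tnxb. The means were 669.5 ± 226 on HFD and 297 ± 114 on Chow (SD, n = 3 each), 2.25-fold higher, with a log2 fold change of 0.90 (SE 0.24) and an adjusted p of 0.01952 in the authors' deposited table. The groups also overlapped with TMM and median of ratios scaling and were apart only in unscaled counts, at 890, 739 and 465 reads in the HFD mice and 194, 298 and 345 reads in the Chow mice. The log2 ratio of the means was 1.17 with all mice, 1.43 without HFD mouse 696 and 1.49 without Chow mouse 707. Leaving out any other mouse gave 0.93 (Chow mouse 670) to 1.14 (Chow mouse 695). Mice 696 and 707 were the only pair that overlapped, so leaving out either had to end the overlap.

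Ccdc80 encodes a secreted protein found in the matrix, also called DRO1 or URB, that is abundant in adipose tissue. It spans chromosome 16 from 45093402 to 45128077, on the plus strand. HFD mice 659, 669 and 696 had 717, 558 and 573 normalized counts, against 345, 222 and 267 in Chow mice 670, 695 and 707. The gap of 213 counts between the groups was wider than the spread within either, 159 on HFD and 123 on Chow. The gene averaged 616 ± 87.6 on HFD and 278 ± 62.3 on Chow (SD, n = 3 each), 2.22-fold higher. Its adjusted p in the authors' deposited table, 2.83e-05, was the smallest of the 8, at a log2 fold change of 1.01 (SE 0.19).

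Itga5 encodes integrin alpha 5, which pairs with the beta 1 subunit to form the main fibronectin receptor. The gene is on chromosome 15 from 103344286 to 103366763, on the minus strand, and 1 of its introns holds the microRNA gene Mir6963. HFD mice 659, 669 and 696 had 228, 168 and 171 normalized counts, and Chow mice 670, 695 and 707 had 369, 305 and 418. Every HFD mouse was below every Chow mouse, with a gap of 77.6 counts. The means were 189 ± 33.8 on HFD and 364 ± 56.3 on Chow (SD, n = 3 each), 1.93-fold lower, and the authors' deposited table gives a log2 fold change of -0.83 (SE 0.19, adjusted p 0.001959). Fibronectin itself, Fn1, and the beta 1 subunit gene Itgb1 were not among the rows and were not analysed here.

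Chsy3 encodes chondroitin sulfate synthase 3, a Golgi enzyme that lengthens chondroitin sulfate chains on proteoglycans. Its deposited span on chromosome 18 runs from 59175401 to 59410446, on the plus strand. Normalized counts were 103, 92.6 and 99.4 in HFD mice 659, 669 and 696, against 225, 174 and 188 in Chow mice 670, 695 and 707. The HFD values were the tightest of any of the 8 genes in either group, with a coefficient of variation of 5.39%, and the groups were 70.7 counts apart. The gene averaged 98.3 ± 5.30 on HFD and 196 ± 26.3 on Chow (SD, n = 3 each), 1.99-fold lower on HFD. Its log2 fold change in the authors' deposited table was -0.87 (SE 0.19), with an adjusted p of 0.001154.

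Cspg5 encodes neuroglycan C, a transmembrane chondroitin sulfate proteoglycan best known from the brain. It is found on chromosome 9 from 110243783 to 110262576, on the plus strand. The deposited counts were low, at 6, 3 and 5 reads in HFD mice 659, 669 and 696 and 19, 61 and 39 reads in Chow mice 670, 695 and 707. After scaling these were 5.42, 3.23 and 4.40 on HFD and 18.6, 58.6 and 47.1 on Chow. The groups did not overlap, and Chow mouse 670 was the nearest to the HFD mice. The means were 4.35 ± 1.10 on HFD and 41.4 ± 20.6 on Chow (SD, n = 3 each), 9.52-fold lower, the third largest fall among the 121 lower genes. With the reads of each group summed, 14 on HFD and 119 on Chow, the fold was 9.32, with an exact 95% interval from 5.34 to 17.6 that covers counting error only and not the spread between mice. The log2 fold change in the authors' deposited table, -1.47 (SE 0.29, adjusted p 9.16e-05), is smaller in size than the log2 ratio of the means, -3.11. The deposited value was the smaller in size for all 8 genes.

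**Figure D2:**
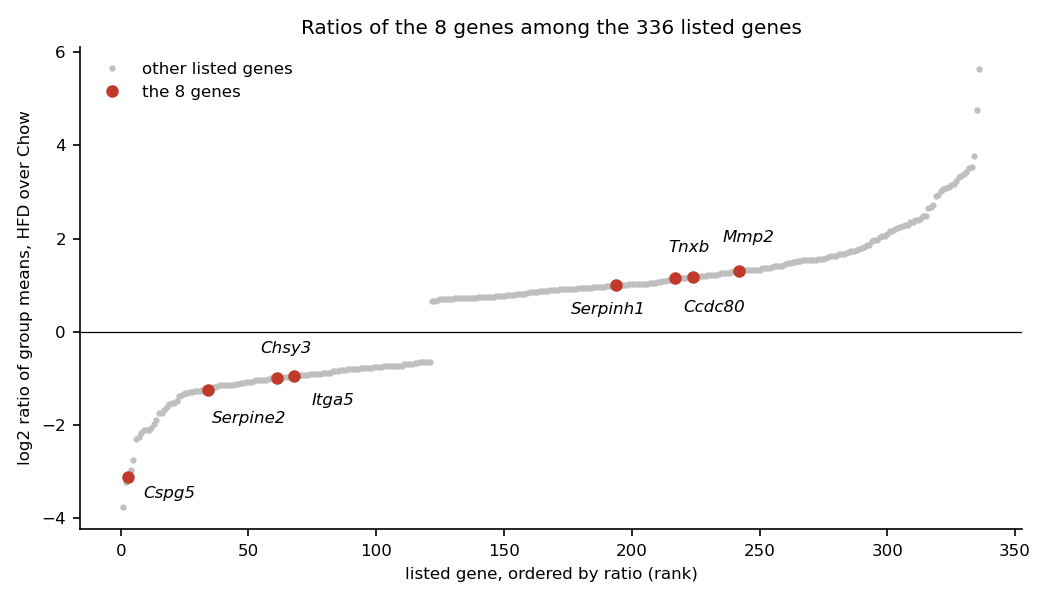
Log2 ratio of the group means, HFD over Chow, with 0.5 added to each mean (vertical axis), for the 336 listed genes in order of that ratio (horizontal axis); the 8 genes are marked in red. Cspg5 is the third lowest of all, at -3.11, and the other 7 lie between -1.24 and 1.30, within the bulk of the listed genes.

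The wider families of these genes were set beside them with 8 lists holding 211 genes, of which 27 were among the 336 rows. On HFD 23 of the 27 were higher and 4 lower, and the 4 lower were Serpine2, Itga5, Chsy3 and Cspg5. Over all 336 genes the split was 215 higher and 121 lower. The 8 genes described here count among the 27 and were taken from the table for their change, so this split is not separate evidence. Of 23 matrix metalloproteinases and their inhibitors, Mmp2 and the macrophage elastase gene Mmp12 were listed, both higher. Of 27 genes that fold, cross-link and process collagen only Serpinh1 was listed, although 9 of 24 collagen chains were, all 9 higher with a median of 2.67-fold. Those chains were Col1a1 (7.61-fold), Col1a2 (3.41-fold), Col3a1 (4.91-fold), Col5a1 (1.80-fold), Col5a2 (1.98-fold), Col6a1 (2.67-fold), Col6a2 (2.88-fold), Col6a3 (2.36-fold) and Col14a1 (1.92-fold). Of 26 integrin subunits, Itgax was higher and Itga5 lower. Cspg5 was the listed member of 35 proteoglycan core proteins, and Chsy3 that of 23 chondroitin and dermatan sulfate synthesis genes. Of 37 tenascins and other matrix glycoproteins 9 were listed, all higher with a median of 2.25-fold. Besides Tnxb and Ccdc80 they were Tnc (2.99-fold), Fbn1 (1.68-fold), Sparc (1.71-fold), Thbs1 (3.35-fold), Fbln2 (3.98-fold), Fbln5 (1.98-fold) and Smoc2 (2.25-fold). Genes of these lists that are not among the rows were not analysed here.

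The HFD mice did not stand in the same order for all genes. HFD mouse 696 had the lowest HFD value of all 9 listed collagen chains and of 6 of the 7 listed glycoproteins that are not among the 8 genes. Mmp2 and Tnxb shared that order, with mouse 659 at 1.99 and 1.97 times mouse 696. For Col3a1, the chain of type III collagen, that ratio was 1.92, and over the 9 chains it ran from 1.13 for Col14a1 to 2.73 for Col1a1. Serpinh1, the collagen chaperone, had its lowest HFD value in mouse 659, at 0.823 times mouse 696. Ccdc80 was lowest in mouse 669, and mouse 659 had 1.25 times the value of mouse 696. Among the lower genes mouse 659 had the highest HFD value of 3 of 4, Itga5, Chsy3 and Cspg5. How often mouse 696 was the lowest HFD mouse over all 215 higher genes was not analysed here. With 3 mice per group these orders are a description.

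**Figure D3:**
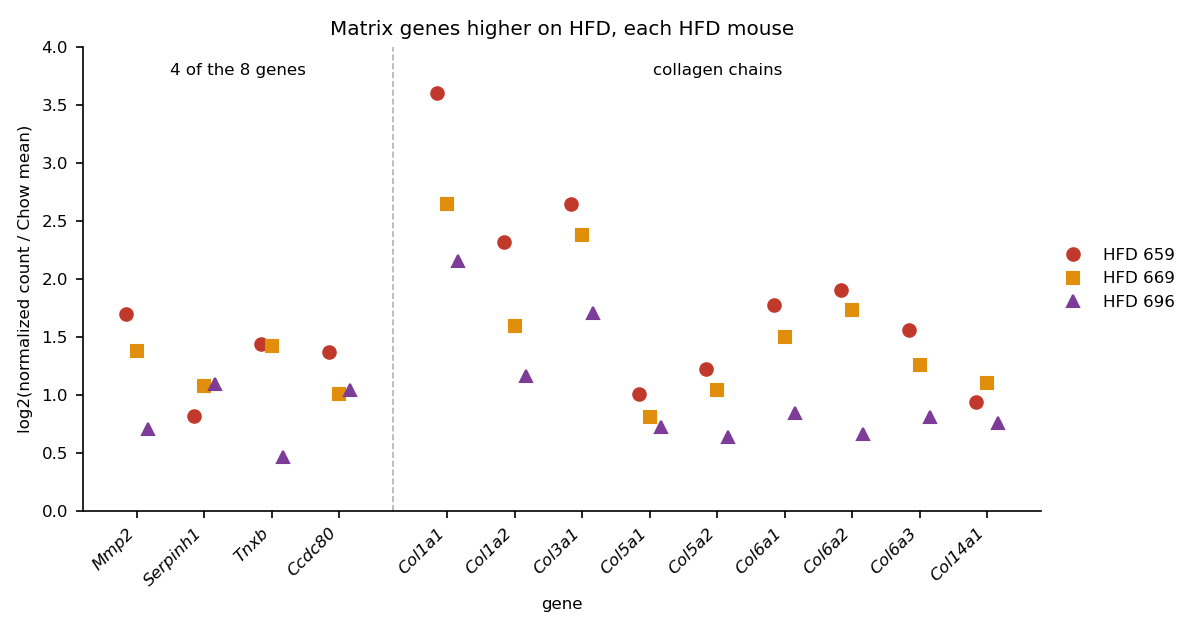
Log2 of the normalized count of each HFD mouse over the Chow mean (vertical axis) for Mmp2, Serpinh1, Tnxb and Ccdc80 (left of the dashed line) and the 9 listed collagen chains (right); each marker is 1 HFD mouse. Mouse 696 is the lowest for all 9 collagen chains and for Mmp2 and Tnxb, whereas mouse 659 is the lowest for Serpinh1, at 0.82, and mouse 669 for Ccdc80.

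Profiles over the 6 mice were compared by the root mean square difference of log2 values, each set to the mean of the Chow mice. Of the 304 eligible listed genes, the closest to Serpinh1 were Enpp2, the autotaxin gene, and Gstt3, a glutathione transferase gene, at differences of 0.098 and 0.099. Chsy3 was closest to the transcription factor gene Gtf2ird1 (0.088) and to Hacd1, a gene of very long chain fatty acid synthesis (0.093). Itga5 was closest to Asap2 (0.106) and the glycerol kinase gene Gk (0.12), and Ccdc80 to Rcan2 (0.106) and the epiplakin gene Eppk1 (0.15). Tnxb had as its nearest genes the monooxygenase gene Fmo2 (0.15) and the laforin gene Epm2a (0.22). The distances were wider for Mmp2, nearest to the interferon-induced gene Ifit2 (0.22) and Ildr2 (0.25), and for Serpine2, nearest to Cyp1a2 (0.26) and Gstp1 (0.29). Cspg5 had no close neighbour, with Csad at 0.72 and Avpr1a at 0.86. The closest profile was in no case that of another of the 8 genes. These are only 8 of the 304 eligible genes, so nothing is read from that.

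Levels of different genes were compared as normalized counts per kilobase of annotated exons. On HFD the order was Ccdc80 (143 ± 20.4), Serpinh1 (110.3 ± 11.6), Tnxb (54.8 ± 18.5), Itga5 (38.3 ± 6.85), Mmp2 (18.7 ± 6.10), Serpine2 (18.2 ± 7.13), Chsy3 (13.6 ± 0.73) and Cspg5 (0.43 ± 0.11) (SD, n = 3). The ranges of the HFD mice overlapped between the neighbours Tnxb and Itga5, Mmp2 and Serpine2, and Serpine2 and Chsy3. On Chow the order was Itga5 (73.8 ± 11.4), Ccdc80 (64.7 ± 14.5), Serpinh1 (55.0 ± 12.5), Serpine2 (43.0 ± 11.97), Chsy3 (27.1 ± 3.63), Tnxb (24.4 ± 9.32), Mmp2 (7.52 ± 1.32) and Cspg5 (4.11 ± 2.04) (SD, n = 3). On Chow the ranges overlapped between all neighbours from Itga5 to Serpine2 and between Chsy3 and Tnxb. Itga5 thus held place 1 on Chow and place 4 on HFD, with the Chow place shared within the spread of the mice. These places depended on the length used, most of all that of Serpine2. Its annotated exons sum to 8287 bases, with retained introns included, and its longest protein-coding transcript has 2210 bases, which gave 68.1 per kilobase on HFD and 161 on Chow, the third and the first place. By that length Chsy3 had 27.5 on HFD and 54.8 on Chow and stood above Mmp2 on HFD (20.5), and Itga5 moved to place 5 on HFD and place 2 on Chow. Ccdc80, Serpinh1 and Cspg5 kept their HFD places. Chsy3 has a longer span in the annotation used for lengths, ending at 59535999, than in the deposited table.

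**Figure D4:**
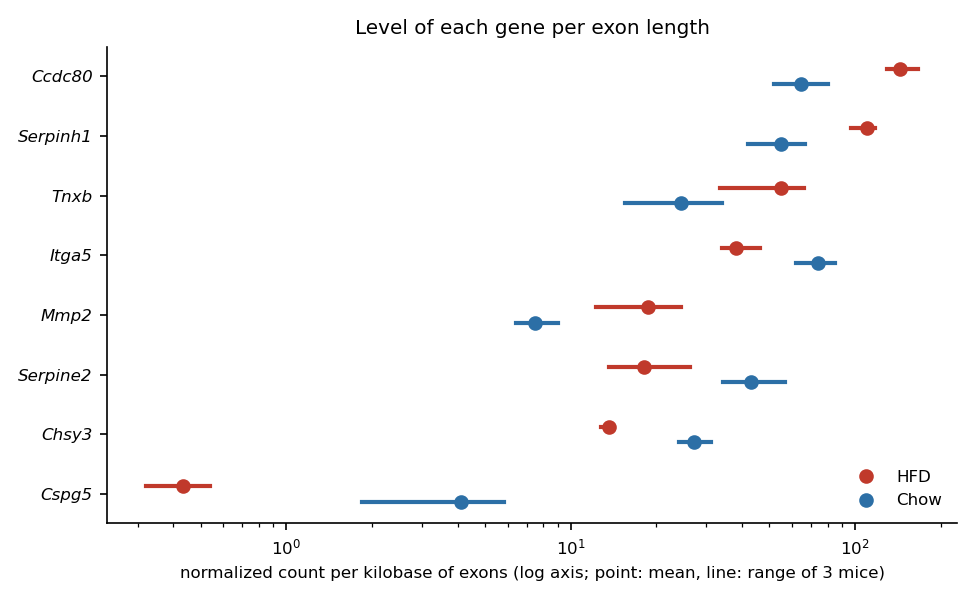
Normalized count per kilobase of annotated exons (horizontal log axis) for the 8 genes, ordered down the page by their HFD mean, with HFD above Chow for each gene; points are means and lines the range of 3 mice. Ccdc80 has the highest HFD mean, 143, and Cspg5 is the lowest in both groups, at 0.43 on HFD and 4.11 on Chow.

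Reads could have been shared at a few places. Within Cspg5 lies Gm43622, and within Tnxb the snRNA gene Gm24389, both on the opposite strand and outside the annotated exons. The last 3 exon bases of Tnxb overlap the pseudogene Cyp21a2-ps on the opposite strand. Whether counting used strand is not given in the sources used here. Refitted tests on the same mice, which repeat the contrast that chose the genes, placed fewer of the 8 genes past an adjusted p of 0.05. All refits saw only the listed genes. In the fits with the recovered size factors, the about 24990 genes entered only as the number adjusted for. Fitted in this way, edgeR's quasi-likelihood test called 8 of 330 genes higher and 1 lower, equal to 0.032% and 0.004% of that number. It called 0 of the 8 genes, although all 8 had an unadjusted p under 0.05. A DESeq2 refit called 105 of 336 genes higher and 54 lower, equal to 0.42% and 0.216% of the about 24990. Among them were Ccdc80 (higher), Serpine2 (lower) and Cspg5 (lower). With TMM scaling and adjustment over the 330 listed genes that passed the filter on low counts, edgeR called 20.3% higher and 36.1% lower. Of the 8 genes it called the 4 lower ones. At a stricter adjusted p of under 0.01, the authors' test held 0.52% of the genes tested as listed and higher and 0.304% as listed and lower, and of the 8 genes 2 and 4. At a deposited log2 fold change of at least 1 in size these shares were 0.368% and 0.14%, and Ccdc80 and Cspg5 passed. By the log2 ratio of the means, which was larger in size, Mmp2, Serpinh1, Serpine2 and Tnxb also reached 1. Groups that did not overlap made up 93.2% of the listed genes in unscaled counts, 65.8% with TMM and 64.3% with the median of ratios, where 8, 5 and 4 of the 8 genes had such groups.

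**Figure D5:**
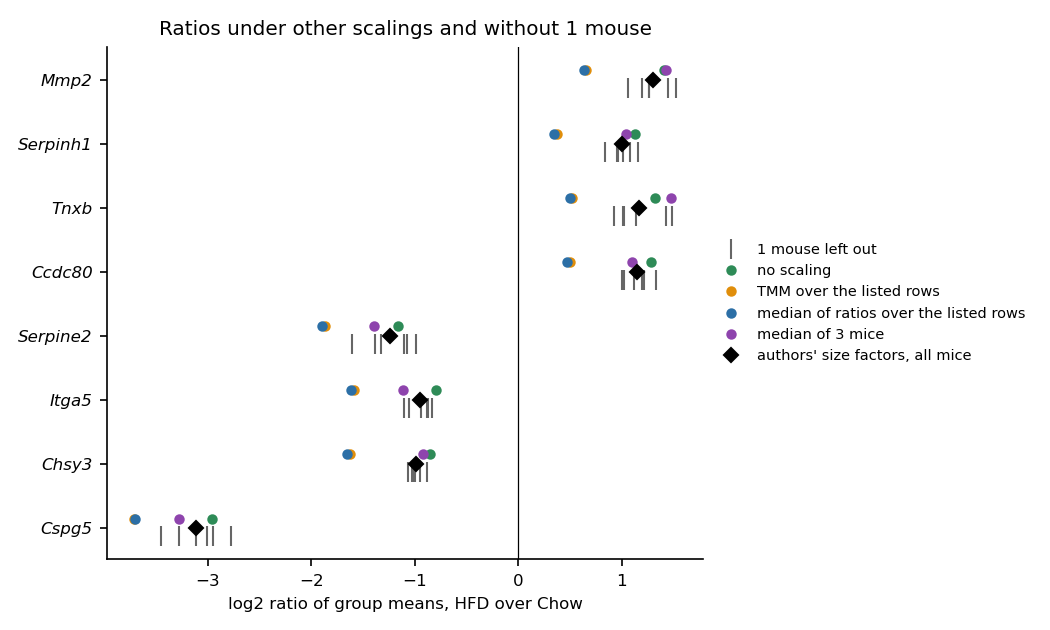
Log2 ratio of group means, HFD over Chow (horizontal axis), for the 8 genes; black diamonds use the authors' size factors and all mice, grey ticks leave out 1 mouse each, and coloured points use another scaling or the median of 3 mice. Each gene keeps its direction in all 10 alternatives, which reuse the mice that chose the genes, and TMM and the median of ratios shift all 8 genes down together.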

How the data were processed

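Liver RNA of 12 mice was held as 2 tables, 1 for the diets and 1 for PCN. HISAT2, HTSeq, DESeq2 and the mouse build GRCm38 (mm10) are named, without versions or settings, per the submitters' processing notes. Each table holds deposited counts (unscaled reads for every mouse), per the file headers. Next to them stand results that the authors computed, namely a mean, a log2 change with its error, a p-value and its adjusted form. Each table lists only genes that the authors selected. All 336 diet genes have an adjusted p of at most 0.0474 in the authors' test and a log2 change of 0.6 or more in size.

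The 8 genes, the gene lists and the rule for closest profiles were chosen with earlier results of these data known. Each mouse's size factor was obtained by least squares from the counts and the deposited mean (largest gap 0.0051 counts). The number of genes tested, about 24990, follows from p and adjusted p of the 16 leading genes. Since the diet contrast chose the genes, no test of it is offered for them, and refits are given only as alternatives. The edgeR test was tested on simulated counts for the listed genes only, without the adjustment over the about 24990 genes. Profiles used log2 of the normalized count plus 0.5, and eligible genes averaged 10 counts or more and carried no predicted-gene or pseudogene name. Lengths came from GENCODE M21, in which all 336 IDs were found, 322 with the same span. Named genes are the 8, their 2 closest profiles each and every listed gene of the lists, except 1 result that is not reported here. Python 3.11.15, R 4.3.3, edgeR 4.0.16 and DESeq2 1.42.0 were used. The number in each library's title was taken as its mouse. An exact permutation test of 3 against 3 mice cannot go below 0.1, and none was run.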

Additional observations from a re-analysis of the deposited data

How the results depend on the processing

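The direction of each of the 8 genes held in all 80 alternative values computed (3 other scalings, the median of 3 mice and leaving out each mouse). All of these reuse the mice that chose the genes. For the 7 genes whose groups do not overlap, leaving out a mouse or taking the median could not turn the direction. Of the 80 values 14 moved by 1 SD or more, those of 7 genes under TMM and the median of ratios. These scalings centre on genes selected for having changed and shifted the median log2 ratio of all 336 genes by -0.63 and -0.65; raw counts shifted it by 0.13. The median log2 ratio of the 4 higher genes, 1.16, became 0.51 with TMM and 0.49 with the median of ratios, and that of the 4 lower genes, -1.11, became -1.75 and -1.77. Without 1 mouse these medians ran from 1.04 to 1.31 and from -1.28 (without HFD mouse 669) to -1.04. The number of genes whose groups do not overlap, 7, was 4 with the median of ratios (Mmp2, Serpinh1, Tnxb and Ccdc80 overlapped), 5 with TMM, 8 with raw counts and 7 to 8 without 1 mouse; over all 336 genes it was 334, against 216, 221, 313 and 334 to 336. Of the 4 genes called higher and 4 called lower by the authors, 2 and 4 had an adjusted p under 0.01 (130 and 76 of all listed genes), and 1 and 1 had a deposited log2 fold change of at least 1 in size (92 and 35). edgeR with the authors' size factors called 0 and 0, with and without a filter on low counts and without any 1 mouse (0 to 0; 4 and 4 had an unadjusted p under 0.05 in each of these fits). Without 1 mouse that test, fitted on the listed genes only, called 1 to 7 of them higher and 0 to 2 lower. edgeR with TMM called 0 and 4, and DESeq2 called 1 and 2; the cause of these gaps was not tested. Leaving out mice for the medians and the overlap, the median of ratios for the medians, and lengths of protein-coding transcripts were added after seeing the data. The reads behind Cspg5, 14 on HFD in all, limit its fold. No paired analysis was possible because the mouse numbers of the groups differ.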
